A study of Arabidopsis thaliana with 9 samples.

Results

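The atrzf1 mutant of Arabidopsis thaliana was compared with wild type (WT) in 3 pairs of RNA libraries. Members were chosen by sample title, which gave 3 libraries of atrzf1 and 3 of WT, numbered 1 to 3 in each genotype, so 6 of the 9 libraries of the series are described. The other 3 come from pca31, which the series presents as a suppressor of atrzf1, and they entered the statistical fit, where they add to the estimate of spread and to the filter on low counts. The atrzf1 plants carry a mutation in AtRZF1 whose lesion the labels do not give, and WT plants are the Col-0 accession. All were 2-week-old seedlings grown on MS medium, a standard plant nutrient medium, and no stress treatment is named for either genotype. RNA was counted by QuantSeq, which reads the 3′ end of polyadenylated transcripts, so a count does not depend on transcript length.

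AtRZF1 encodes a RING-type E3 ubiquitin ligase, an enzyme that attaches ubiquitin to other proteins and so can mark them for breakdown. The gene is known as a negative regulator of the dehydration response, and its mutants as plants that keep more proline under drought. Proline is made from glutamate by P5CS enzymes and accumulates in plants as a compatible solute when water is short.

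The 6 libraries held 22478803 to 31120895 counts, with 21417 to 22411 genes detected in each. Values below are CPM, counts scaled by library size and composition, and a paired difference is the log2 CPM of an atrzf1 library minus that of the WT library with the same number. Markers of green tissue were abundant in every library, with summed light-harvesting and Rubisco small subunit levels of 144000, 104000 and 55500 CPM in atrzf1, against 155000, 110000 and 59800 in WT. Root markers outside the PYK10 system were scarce in 4 libraries although the samples are labelled as seedlings. Their 17 genes summed to 18.9, 18.7 and 229 CPM in atrzf1 and to 18.1, 21.5 and 412 CPM in WT. In atrzf1 9, 11 and 2 of these 17 genes were at 0 counts, and in WT 10, 10 and 0 were. Of 9 seed storage and oil body genes, 7, 7 and 8 were at 0 in atrzf1, and 8, 6 and 8 in WT. The replicate number separated libraries more than the genotype did, with Spearman correlations across genes of 0.975 to 0.981 within a number and 0.855 to 0.946 within a genotype. For this reason each gene is given by its 3 paired differences, and the test kept the number as a block.

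Of 20672 genes tested by edgeR's quasi-likelihood test with the replicate block, 7 differed between atrzf1 and WT at a Benjamini-Hochberg adjusted p under 0.05, which is 0.0339% of the genes. Of these, 6 (0.029%) were higher and 1 (0.00484%) was lower in atrzf1. Without the block 0 genes passed and 115 had an unadjusted p under 0.05. DESeq2 with the block called 47 genes, some of which lay higher in only 1 pair. In edgeR with the block 771 genes (3.73%) had an unadjusted p under 0.05, of which 439 (2.12%) lay higher and 332 (1.61%) lower in atrzf1. The 3 values of the genotypes did not overlap in 268 genes that lay higher (1.3%) and 236 that lay lower (1.14%). In all 3 pairs, 2500 genes (12.1%) lay higher and 2711 (13.1%) lower. The labels do not say whether libraries of a genotype came from separate cultures, so the p-values reflect only how these particular samples varied, and part of that variation may be technical.

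Across the 20672 genes, which are not independent replicates, the paired differences of replicates 1 and 2 had a Pearson r of 0.131. The same r was -0.032 for replicates 1 and 3 and 0.034 for replicates 2 and 3, and no library is common to any of these pairs. Over the 13466 genes whose higher genotype averaged at least 5 CPM, the 3 values were 0.193, -0.056 and 0.164. Among these 13466 genes (65.1%), differences of more than 1 log2 unit were seen in 215 genes (1.6%) in replicate 1, in 524 (3.89%) in replicate 2 and in 313 (2.32%) in replicate 3. Among these, 2 genes (0.00967% of all tested) lay higher by at least 1 unit in all 3 pairs, which were SWEET10 and RPP2C, and 5 (0.0242%) lay lower, which were AtRZF1, MAF5, FLC, QQS and BGLU22.

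AtRZF1 (AT3G56580, chr3:20961543-20963817 on the plus strand of TAIR10.1) was the label check. It had 2.3, 4.6 and 2.11 CPM in atrzf1, against 24, 31 and 25.4 in WT. The groups did not overlap, and the mutant libraries still held reads of the gene. The log2 fold change was -3.23 ± 0.27 (SE of the fit, n = 3 per genotype, edgeR adjusted p = 0.00113), with paired differences of -3.35, -2.73 and -3.54. Within 60 kb on either side, 26 other genes were tested and 0 were called by edgeR, 1 had an unadjusted p under 0.05, and their log2 fold changes ran from -0.48 to 1.05.

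The 6 genes called higher in atrzf1 fall into 2 kinds. GRP14, GRP16, EXL4, XTH3 and CYP96A15 were present in atrzf1 libraries 1 and 2 and at 0 in library 3 of both genotypes, so their calls rest on 2 pairs. Of these 5, only CYP96A15 passed the filter on low counts when the 6 atrzf1 and WT libraries were fitted alone (edgeR adjusted p = 0.00336). GRP14, GRP16, EXL4 and XTH3 were tested only because the pca31 libraries were in the fit. In bulk RNA such as this, fewer cells of a type and less RNA per cell cannot be told apart. RPP2C was measured and higher in all 3 pairs. The plot of called genes by library shows this difference.

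**Figure D1:**
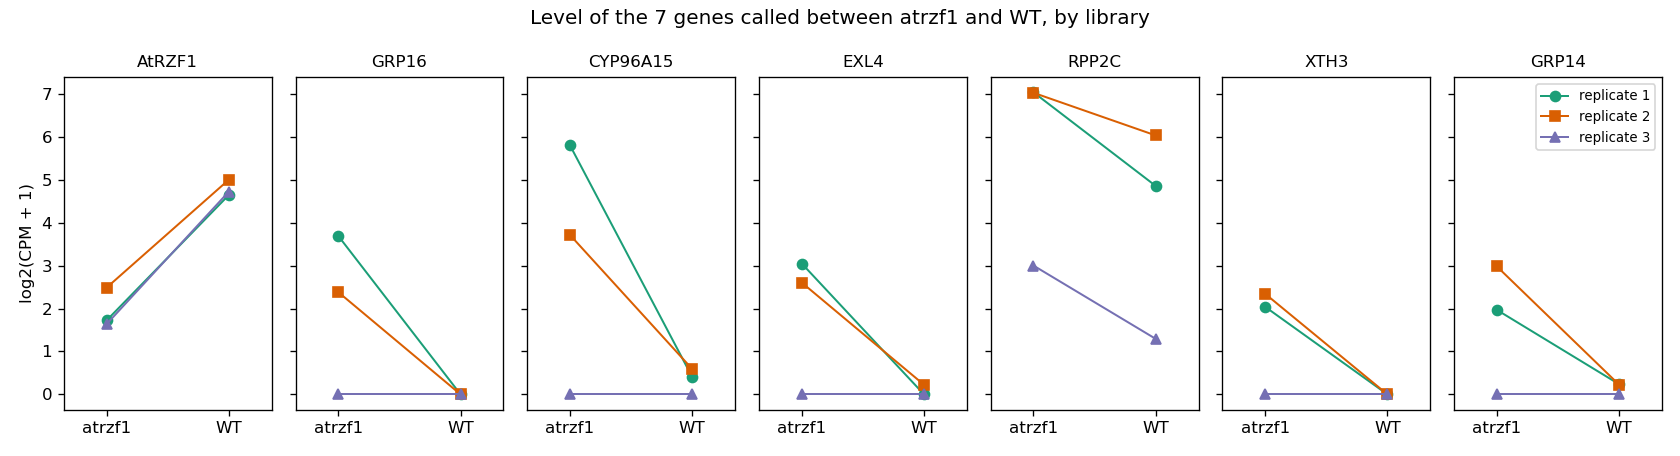
Levels of the 7 called genes, as log2(CPM + 1), in each atrzf1 library (left) and WT library (right), with a line joining libraries of the same number. AtRZF1 is lower in all 3 pairs and RPP2C higher in all 3, while the other 5 genes are at 0 in both libraries of replicate 3.

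GRP14 and GRP16 encode glycine-rich oleosin-domain proteins of the pollen coat, the lipid layer that the anther's tapetum deposits on pollen. GRP16 (AT5G07540, chr5:2385900-2387249, minus strand) had 11.9, 4.21 and 0 CPM in atrzf1 and 0 CPM in the 3 WT libraries. With each WT library set to a floor of 3 counts, its atrzf1 mean was 46.1 times the mean floor (edgeR adjusted p = 0.0165). This ratio of means ignores the pairing, and most of it comes from atrzf1 library 1. The paired differences were 7.4 and 5.91 in replicates 1 and 2, and replicate 3 gave no information. GRP14 (AT5G07510) had 2.91, 6.88 and 0 CPM in atrzf1, against 0.178, 0.168 and 0 in WT, a log2 fold change of 4.65 ± 0.56 (SE, edgeR adjusted p = 0.0355). Both lie in a tandem cluster on chromosome 5 with GRP17, GRP19 and GRP20, and reads may have been split among these related genes. GRP16 also overlaps AT5G07545 on the other strand, and since the strand setting of the counting is not given, the overlap cannot be told apart.

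EXL4 (AT1G75910) encodes an extracellular lipase of the pollen coat. Its levels were 7.27, 5.08 and 0 CPM in atrzf1 and 0, 0.168 and 0 CPM in WT, with a log2 fold change of 6.19 ± 0.76 (SE, edgeR adjusted p = 0.0355). XTH3 (AT3G25050), a xyloglucan endotransglucosylase/hydrolase that cuts and rejoins a cell wall polymer, had 3.11, 4.07 and 0 CPM in atrzf1 and 0 CPM in all 3 WT libraries. Its atrzf1 mean was 20.5 times the mean of the same floor, again without regard to the pairing (edgeR adjusted p = 0.0355). CYP96A15 (AT1G57750), the midchain alkane hydroxylase that makes secondary alcohols and ketones of stem wax, had 54.6, 12.1 and 0 CPM in atrzf1, against 0.320, 0.504 and 0 in WT. Its log2 fold change was 6.20 ± 0.75 (SE, edgeR adjusted p = 0.0355), and its 2 informative paired differences were 7.13 and 4.40. In all 5 genes the atrzf1 library was the higher in the first 2 pairs, and the third gave no information. The calls of GRP14, EXL4 and XTH3 were each lost when replicate 1 or 2 was left out (edgeR adjusted p from 0.125 to 1) and when the pca31 library numbered 2, or WT library 1, left the fit (0.071 to 0.108). They were also lost without atrzf1 library 1 or 2 (0.0689 to 0.294), and those of GRP14 (0.301) and XTH3 (0.119) without WT library 2. The GRP16 call was lost without WT library 1 (0.0773) or replicate 1 (0.0783), and that of CYP96A15 without WT library 1 (0.148) or 2 (0.169).

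RPP2C (AT3G28500, chr3:10682029-10682979, plus strand) encodes an acidic P2 protein of the ribosomal stalk, the arm of the large subunit that recruits translation factors. It had 130, 129 and 7 CPM in atrzf1, against 27.9, 64.3 and 1.45 in WT. Each mutant library lay above the WT library of its number, by 2.22, 1.01 and 2.21 log2 units, although the groups overlap when numbers are ignored. The log2 fold change was 1.79 ± 0.25 (SE, edgeR adjusted p = 0.0355). The call was lost without replicate 1 (adjusted p = 0.231) and without replicate 3 (adjusted p = 0.0975), also without the pca31 library numbered 2 (adjusted p = 0.0661) or without library 1 or 3 of either genotype (adjusted p from 0.0904 to 0.294). The log2 fold change stayed between 1.51 and 2.27 over 18 alternatives. The other 12 stalk protein genes did not pass the test, and the median log2 fold change over all 13 was 0.09. Their summed level was 6400, 11500 and 4110 CPM in atrzf1, against 6790, 8990 and 4230 in WT.

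SWEET10, a sucrose transporter of the SWEET family known to be switched on at the shoot apex during the transition to flowering, had the largest smallest paired difference among genes at 5 CPM that lay higher. It had 10.7, 11.8 and 9.55 CPM in atrzf1, against 0.533, 3.32 and 1.49 in WT, and the groups did not overlap. The paired differences were 4.15, 1.81 and 2.62, with a log2 fold change of 2.76 ± 0.41 (SE) that missed the threshold (edgeR adjusted p = 0.0578). With the 6 atrzf1 and WT libraries alone the adjusted p was 0.0391, and SWEET10 was called in 3 of 18 alternatives.

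Apart from RPP2C, the other genes of the 12 chosen on the higher side did not pass the test. AT3G16670, of the Pollen Ole e 1 allergen and extensin family, had 63.9, 153 and 19.7 CPM in atrzf1, against 35.4, 78.9 and 8.81 in WT. Its 3 paired differences, 0.85, 0.95 and 1.15, were among the most even of the genes that lay higher (log2 fold change 0.99 ± 0.18, edgeR adjusted p = 0.184). It was called in 3 of 18 alternatives, among them the 6 libraries alone (edgeR adjusted p = 0.0391) and DESeq2 with the block (adjusted p = 0.00113). CER1, an enzyme of alkane synthesis in cuticular wax, had paired differences of 0.83, 0.79 and 1.03. MES16, a methylesterase that acts on chlorophyll breakdown products, had 0.93, 0.74 and 1.31. ERF13, an ethylene-responsive element binding factor, had 0.74, 2.86 and 1.21. The remaining genes of this group were AT1G78410 (a VQ motif protein), AT4G33467 (uncharacterised), AT2G32030 (an acyl-CoA N-acyltransferase family member), AT5G38000 (a zinc-binding dehydrogenase), AT3G13430 (a RING/U-box protein) and AT5G50915 (a bHLH transcription factor). Their smallest paired differences ran from 0.67 in AT5G50915 to 0.98 in AT1G78410. AT5G37940, another zinc-binding dehydrogenase, near AT5G38000 on chromosome 5, was singled out after its values were seen. It had 49.6, 18.6 and 0.0364 CPM in atrzf1, against 0.498, 3.11 and 0 in WT (log2 fold change 4.35 ± 0.66, edgeR adjusted p = 0.0642).

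**Figure D2:**
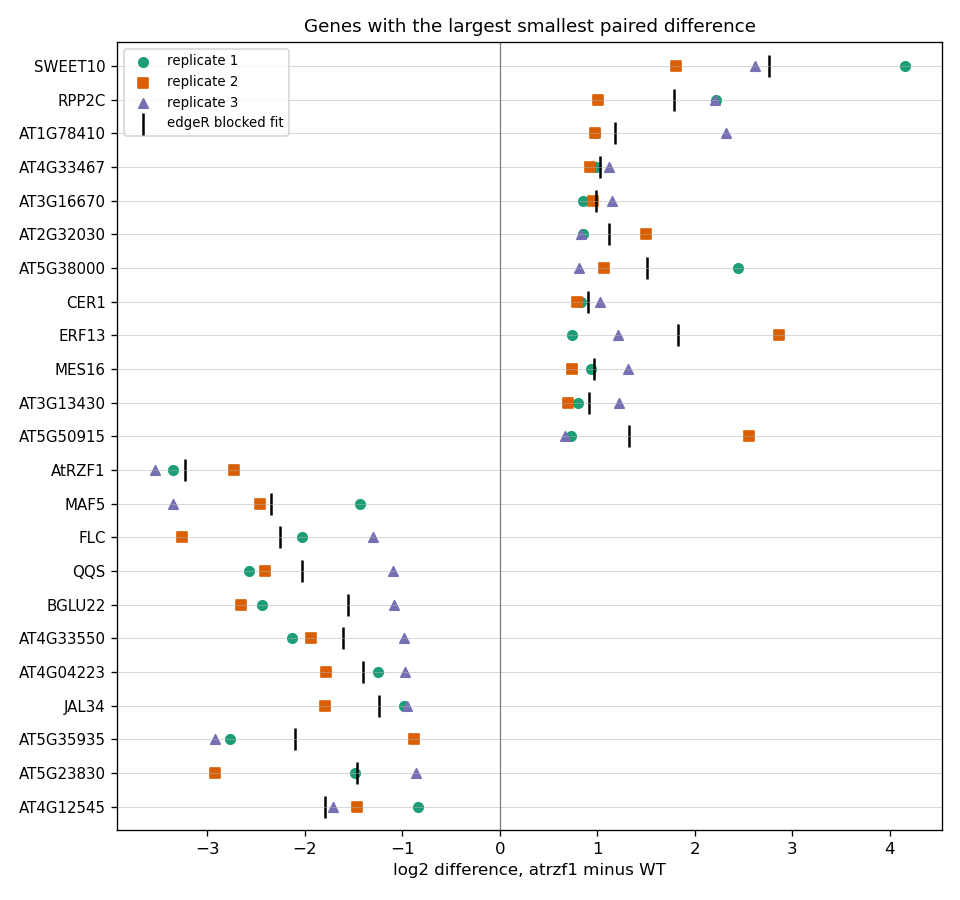
Paired log2 differences (atrzf1 minus WT) in replicates 1 to 3, and the fitted log2 fold change, for 12 genes that lay higher and 11 that lay lower, chosen for the largest smallest difference. By construction all 3 points of a gene lie on one side of 0, and of the genes plotted only AtRZF1 and RPP2C passed the adjusted test.

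On the lower side, 2 MADS-box repressors of flowering followed AtRZF1. MAF5 had 5, 2.37 and 0.109 CPM in atrzf1, against 13.6, 13.3 and 1.77 in WT, with a log2 fold change of -2.35 ± 0.40 (SE, edgeR adjusted p = 0.123). FLC had 1.59, 1.1 and 1.24 CPM in atrzf1, against 6.72, 11.1 and 3.15 in WT, with a log2 fold change of -2.26 ± 0.43 (SE, edgeR adjusted p = 0.207). The FLC values of the genotypes did not overlap, but neither gene passed the test in the main fit. Both were called by DESeq2 with the block, with adjusted p of 6.21e-05 for MAF5 and 0.00081 for FLC. Each was called in 2 of the 17 alternatives that tested it. AT5G01675 overlaps FLC on the other strand, so reads of these 2 genes cannot be told apart.

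QQS, an orphan gene of Arabidopsis known for its effect on starch content, had 2.54, 4.78 and 2.33 CPM in atrzf1, against 15.5, 25.7 and 5.07 in WT. The groups did not overlap, and the paired differences were -2.57, -2.41 and -1.1 (edgeR adjusted p = 0.18). It was called in 5 of 18 alternatives. Among them were the 6 libraries alone (edgeR adjusted p = 0.0391), DESeq2 with the block (0.00019) and edgeR without replicate 3 (0.0209). AT4G04223, annotated as a non-coding RNA, had paired differences of -1.25, -1.78 and -0.97. AT5G35935, an uncharacterised gene, had 0.947, 3.86 and 0.729 CPM in atrzf1 and 6.90, 7.14 and 5.98 CPM in WT, again without overlap. The genes AT4G33550 and AT4G12545 (lipid-transfer protein family) and AT5G23830 (an MD-2-related lipid recognition protein) also lay lower in all 3 pairs. These 3 were measured mainly in replicate 3, where AT4G33550, for example, had 11.8 CPM in atrzf1 and 23.3 CPM in WT.

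Another 2 of the genes that lay lower, BGLU22 and JAL34, belong to one cellular system. Endoplasmic reticulum (ER) bodies are spindle-shaped compartments of Brassicaceae cells that store β-glucosidases, which release defence compounds from glucosides when cells break. PYK10 is the main β-glucosidase of root and seedling ER bodies, and BGLU18 that of leaf ER bodies. NAI1 is a bHLH transcription factor needed for PYK10 expression, NAI2 and TSA1 are needed to form the bodies, MEB1 and MEB2 sit in their membrane, and jacalin-related lectins (PBP1, JAL) and GDSL lipase-like proteins (GLL) join PYK10 in large complexes after damage.

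Upstream windows of 3 of these genes are shown because the set lay lower together and NAI1 belongs to a class of factors that binds the E-box, CANNTG. Each is the 250 bases before the annotated gene start, read 5′ to 3′ on the gene's strand from the RefSeq genome TAIR10.1, with E-boxes in capitals. The windows are chr3:2843782-2844031 (minus strand) for PYK10, chr3:5402654-5402903 (minus strand) for NAI2 and chr3:5579040-5579289 (plus strand) for PBP1.
PYK10: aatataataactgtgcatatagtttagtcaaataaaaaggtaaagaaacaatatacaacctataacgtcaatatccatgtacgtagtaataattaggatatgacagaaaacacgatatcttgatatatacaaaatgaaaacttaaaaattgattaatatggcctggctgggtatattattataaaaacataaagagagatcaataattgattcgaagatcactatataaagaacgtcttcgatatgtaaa
NAI2: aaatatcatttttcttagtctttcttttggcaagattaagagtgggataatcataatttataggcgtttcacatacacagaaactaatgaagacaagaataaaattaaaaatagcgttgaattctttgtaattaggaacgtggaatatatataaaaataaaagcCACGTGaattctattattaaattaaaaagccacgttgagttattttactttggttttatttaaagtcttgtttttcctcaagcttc
PBP1: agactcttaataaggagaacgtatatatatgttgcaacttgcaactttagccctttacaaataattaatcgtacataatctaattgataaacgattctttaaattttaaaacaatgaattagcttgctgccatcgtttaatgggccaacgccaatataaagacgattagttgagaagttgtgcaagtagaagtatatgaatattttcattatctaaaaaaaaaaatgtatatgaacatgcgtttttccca
The NAI2 window holds a CACGTG, the G-box form of the E-box, and the other 2 windows hold no CANNTG. Both motifs equal their own reverse complement, so 1 scan covers both strands, and every CACGTG is also a CANNTG. An E-box was found in 10 of the 19 ER body windows (52.6%) and in 11640 of 20614 windows of tested genes (56.5%). CACGTG was found in 1 of 19 (5.26%) and in 1500 of 20614 (7.28%). A match is a description of these letters and not a binding site.

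All 19 ER body and PYK10 complex genes had a fitted log2 fold change below 0 in atrzf1, and 17 lay lower in all 3 pairs, against 13.1% of all tested genes. This list was put together after such values were seen, so its counts are a description. Of the 19, 0 passed edgeR's adjusted test and 16 had an unadjusted p under 0.05, against 1.61% of all tested genes. DESeq2 with the block called PYK10, PBP1, JAL22, JAL34 and GLL23. The median log2 fold change was -1.02, against 0 over all tested genes, and the medians of the paired differences were -0.98, -1.41 and -0.68. Summed over the list, the level was 2200, 817 and 3520 CPM in atrzf1, against 3700, 2910 and 5770 in WT.

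PYK10 (AT3G09260) had 67.4, 17.3 and 1340 CPM in atrzf1, against 153, 52.4 and 1850 in WT, with paired differences of -1.18, -1.60 and -0.46 (edgeR adjusted p = 0.266). PBP1 had 88.5, 34.3 and 433 CPM in atrzf1, against 196, 138 and 761 in WT, with paired differences of -1.15, -2.01 and -0.81 (edgeR adjusted p = 0.137). JAL34 had 18.9, 8.68 and 305 CPM in atrzf1, against 37.3, 30.3 and 589 in WT, a log2 fold change of -1.24 ± 0.20 (SE, edgeR adjusted p = 0.085, and 0.0391 with the 6 libraries alone). JAL34 was called in 4 of 18 alternatives. The level of these genes differed many-fold between replicate numbers, and within each number the atrzf1 library was the lower. JAL34 and JAL35 overlap on opposite strands, as do PYK10 and AT3G09250, so reads of each such pair cannot be told apart.

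BGLU18, the leaf form, was most abundant in replicates 1 and 2, with 1420, 554 and 290 CPM in atrzf1, against 2430, 2110 and 662 in WT. Its paired differences were -0.78, -1.93 and -1.19 (edgeR adjusted p = 0.635, and 0.046 with the 6 libraries alone). It was called in 1 of 18 alternatives. BGLU22 was found almost only in replicate 3, at 64.5 CPM in atrzf1 and 138 CPM in WT. The regulator NAI1 had 5.07, 4.16 and 23.1 CPM in atrzf1, against 7.29, 7.26 and 39.6 in WT (log2 fold change -0.72 ± 0.26, edgeR adjusted p = 1). NAI2 had 4.57, 1.71 and 90.7 CPM in atrzf1, against 8.10, 2.60 and 144 in WT. The exceptions to 3 lower pairs were MVP1, an ER protein of the GDSL lipase-like family, with paired differences of 0.09, -0.46 and 0.03, and BGLU21, which was at 0 in both libraries of replicate 2.

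**Figure D3:**
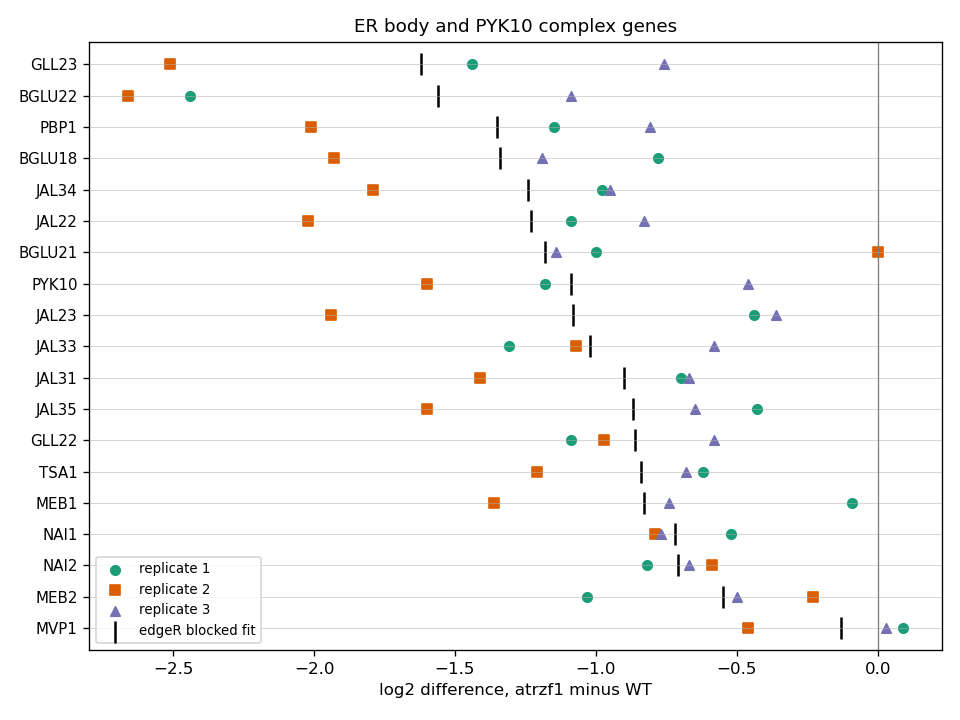
Paired log2 differences (atrzf1 minus WT) in replicates 1 to 3, and the fitted log2 fold change, of the 19 ER body and PYK10 complex genes, ordered by the fitted value. Among the points, those of MVP1 in replicates 1 and 3 lie above 0, that of BGLU21 in replicate 2 is at 0, and the rest lie below 0.

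The 17 root markers outside this list lay level in replicates 1 and 2 and lower in replicate 3, with log2 ratios of their sums of 0.07, -0.21 and -0.85. The ER body sums had log2 ratios of -0.75, -1.83 and -0.71. In replicate 3 root markers and ER body genes were thus both lower in atrzf1, and the part of root material in that pair was not tested. Next to the jacalin cluster on chromosome 3, NSP1, which directs glucosinolate breakdown to nitriles, was singled out after its values were seen. It had 176, 106 and 466 CPM in atrzf1, against 308, 289 and 891 in WT, with paired differences of -0.80, -1.45 and -0.93 (edgeR adjusted p = 0.351). It was called in 3 of 18 alternatives, among them the 6 libraries alone (edgeR adjusted p = 0.0391) and DESeq2 with the block (adjusted p = 0.00132). MBP1, a myrosinase-binding protein chosen in the same way, had paired differences of -0.65, -2.15 and -1.55.

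Jasmonate, a wound hormone made from linolenic acid, is known to induce several ER body and lectin genes of leaves. Of 32 jasmonate synthesis and signalling genes, 0 passed edgeR's adjusted test. In this list 3 had an unadjusted p under 0.05, all lower in atrzf1, against 1.61% of all tested genes. In all 3 pairs 8 lay lower and 0 higher, against 13.1% and 12.1% of all tested genes, with a median log2 fold change of -0.17. AOC1, an allene oxide cyclase of the synthesis pathway, had 15.2, 13.1 and 19.1 CPM in atrzf1, against 26.2, 46.9 and 66.4 in WT. Its genotypes did not overlap, and its paired differences were -0.78, -1.84 and -1.79 (edgeR adjusted p = 0.937, and 0.0395 with the 6 libraries alone). AOC1 was called in 1 of 18 alternatives. Its neighbour AOC2, which may share reads with it, had -0.27, -0.73 and -1.55. Summed over the list, the level was 3300, 3630 and 1480 CPM in atrzf1, against 3350, 4950 and 2410 in WT, so replicate 1 was level and the other 2 pairs were lower.

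Genes of flower development were among those on the higher side, mainly in replicates 1 and 2. The floral, pollen and flowering-time lists were chosen with earlier results of these data known, so their counts are a description. The organ identity genes encode mainly MADS-box factors that specify sepals, petals, stamens and carpels. Of 15 tested, 0 passed edgeR's adjusted test, 7 had an unadjusted p under 0.05, all higher in atrzf1, and 6 lay higher in all 3 pairs. Over all tested genes these shares were 2.12% and 12.1%. DESeq2 with the block called AP1, AP3, PI and SEP3, all higher. Their summed level was 87.2, 59.6 and 26.7 CPM in atrzf1, against 19.2, 30.6 and 21.1 in WT. SEP3, a co-factor of the organ identity proteins, had 23.2, 7.36 and 13.4 CPM in atrzf1, against 2.91, 1.64 and 9.08 in WT (edgeR adjusted p = 0.653). PI, a petal and stamen gene, had 19.3, 7.80 and 3.57 CPM in atrzf1 and 1.67, 2.01 and 2.52 CPM in WT, and AP1, a meristem and sepal gene, had paired differences of 3.45, 2.18 and 2.2.

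Of 24 tested tapetum and pollen coat genes, edgeR called 3 higher (GRP14, GRP16 and EXL4), against 0.029% of all tested genes, and 0 lower. These 3 genes were tested only because the pca31 libraries were in the fit, so this count is only a description. DESeq2 with the block called GRP14 and GRP20. The list summed to 188, 115 and 32.9 CPM in atrzf1, against 37.4, 48.9 and 26.1 in WT. GRP17, another pollen coat oleosin, had 70.2, 23.0 and 0 CPM in atrzf1, against 0, 2.22 and 0 in WT (edgeR adjusted p = 0.252). Of the 30 listed genes, 18 were at 0 counts in the replicate 3 library of either genotype. Mature pollen genes were highest in atrzf1 library 1, with sums of 31.3, 5.39 and 4.96 CPM in atrzf1, against 6.22, 4.37 and 7.94 in WT. In the pca31 libraries mature pollen genes summed to 13.2, 23.9 and 4.35 CPM. The pollen coat list summed there to 215, 240 and 30.1 CPM, and the organ identity list to 67.6, 85.5 and 24.7 CPM. High sums of these lists in replicates 1 and 2 were thus not particular to atrzf1. VGD1, a pollen tube pectin methylesterase, had 9.37, 0.351 and 0 CPM in atrzf1 and 0 CPM in the 3 WT libraries (edgeR adjusted p = 0.625). Of 9 tested mature pollen genes, 5 had an unadjusted p under 0.05, all higher, against 2.12% of all tested genes. Among them, VGDH1 and RALFL8 had 4.4 and 5.31 CPM in atrzf1 library 1 and 0 CPM in atrzf1 libraries 2 and 3. VGD1, VGDH1 and RALFL8 passed the filter on low counts only with the pca31 libraries in the fit, so this count is only a description. In all 3 pairs 0 lay higher and 1 lower, against 12.1% and 13.1%. The lower one was TIP5;1, with paired differences of -0.21, -1.28 and -0.83. Floral, pollen coat and mature pollen sums were thus highest in the same atrzf1 library, and the part of flower buds in the calls of GRP14, GRP16, EXL4, XTH3 and CYP96A15 was not tested.

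**Figure D4:**
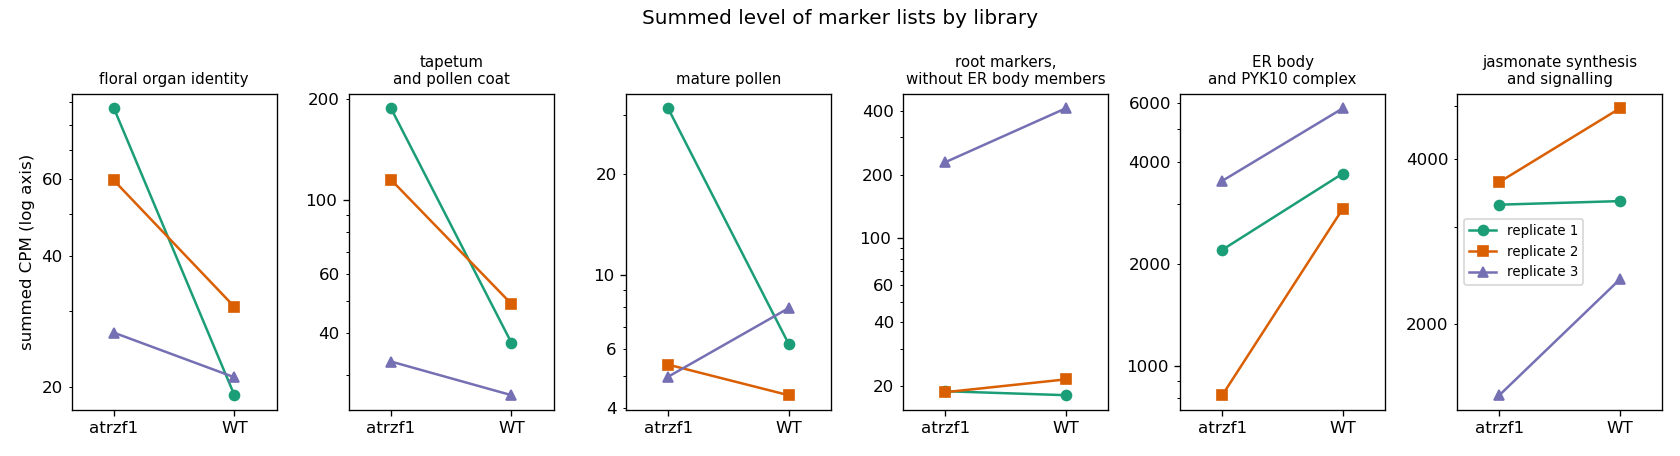
Summed CPM (log axes, each with its own range) of 6 marker lists in each atrzf1 library (left) and WT library (right), with lines joining libraries of the same number. ER body sums are lower in atrzf1 in all 3 pairs, floral and pollen coat sums are higher in all 3, and root markers differ mainly in replicate 3.

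Flowering-time genes upstream of the floral genes gave 8 members higher and 2 lower in all 3 pairs among 20 tested, against 12.1% and 13.1% of all tested genes, and 0 passed edgeR's adjusted test. The lower ones were FLC and MAF5. Those with an unadjusted p under 0.05 on the higher side were AGL42, SPL3, SPL9 and SPL15, MADS-box and SPL factors that promote flowering. TFL1, which is not one of these promoters, also lay higher in all 3 pairs, by 1.08, 0.25 and 2.2. The median log2 fold change of the list was only 0.13, with 13 genes above 0 and 7 below. Over the alternatives this median ran from -0.02 to 0.31. AGL42 had 3.92, 4.03 and 1.86 CPM in atrzf1, against 1.21, 1.22 and 1.14 in WT, without overlap. SOC1, an integrator of flowering signals, had 87.5, 67.9 and 73.4 CPM in atrzf1, against 55.7, 52.1 and 67.1 in WT (log2 fold change 0.38 ± 0.18). These 2 sets of values lay apart, but the SOC1 gap in replicate 3 was 0.13 log2 units.

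Among the pathways for which AtRZF1 is known, few genes differed at either threshold. The median log2 fold change of 10 proline genes was -0.11. Of these, 0 passed edgeR's adjusted test and 1 had an unadjusted p under 0.05, against 3.73% of all tested genes. That gene was P5CS1, the stress-induced synthesis enzyme, with 233, 73.2 and 152 CPM in atrzf1, against 282, 94.0 and 248 in WT. AT2G39795 overlaps it on the other strand, so reads of these 2 genes cannot be told apart. Its paired differences were -0.27, -0.36 and -0.70 (log2 fold change -0.45 ± 0.16, edgeR adjusted p = 1). Of 30 dehydration and abscisic acid genes, 0 passed the adjusted test and 1 had an unadjusted p under 0.05. Their pair medians were 0.18, 0.15 and -0.44, so the pairs did not share a direction. Of 15 drought-related ubiquitin ligases other than AtRZF1, 0 passed at either threshold. Rhamnogalacturonan lyases, the pectin-cutting family named by the series, were low, and 4 of 7 were tested. Their sum was 13.9, 9.73 and 18.6 CPM in atrzf1, against 15.6, 10.6 and 20.7 in WT, and 0 had an unadjusted p under 0.05. Most of the sum came from AT1G09910, with 12.8, 7.93 and 16 CPM in atrzf1. The pair medians of the 4 tested genes were -1.03, 0.16 and 0.03, so the pairs did not share a direction. Among 14 pectin synthesis genes, 0 passed at either threshold.

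In photosynthesis and heat shock genes more members lay lower than higher, by small amounts. Of 21 light-harvesting and Rubisco small subunit genes, 11 lay lower and 1 higher in all 3 pairs, against 13.1% and 12.1% of all tested genes, with a median of -0.19. LHCB1.3, a major antenna protein, had 15300, 15900 and 2780 CPM in atrzf1, against 17800, 19400 and 4620 in WT, and its near-identical copies may have exchanged reads with it. RBCS2B, a Rubisco small subunit gene, lay higher, with paired differences of 0.02, 0.63 and 0.61. Of 20 heat shock genes, 8 lay lower and 1 higher in all 3 pairs, with a median of -0.15. HSP70-4, a chaperone, had 20.9, 5.08 and 29.6 CPM in atrzf1, against 29.6, 11.7 and 46.8 in WT (edgeR adjusted p = 0.532), and HSP90.1, another chaperone, had paired differences of -0.20, -0.66 and -0.85. In these lists 0 of 41 genes passed edgeR's adjusted test, while 8 had an unadjusted p under 0.05, against 3.73% of all tested genes.

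Of 24 glucosinolate genes, 7 lay lower and 0 higher in all 3 pairs, against 13.1% and 12.1% of all tested genes, with a median of -0.04. The 2 with an unadjusted p under 0.05 were CYP83B1 and CYP79B3, both enzymes of the indolic branch. CYP83B1 had 83.5, 105 and 49.9 CPM in atrzf1, against 117, 175 and 70.1 in WT. CYP79B3 had 48.4, 57.2 and 49.1 CPM in atrzf1, against 62.8, 83.2 and 66.3 in WT, without overlap. Of 16 flavonoid genes, 5 lay lower and 1 higher in all 3 pairs, against 13.1% and 12.1% of all tested genes. LDOX, an anthocyanin enzyme, was among the lower ones with -0.81, -0.60 and -0.80. None of these genes passed edgeR's adjusted test, and 2 flavonoid genes had an unadjusted p under 0.05, 1 in each direction.

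Of 32 tested cuticular wax and cutin genes, 9 lay higher and 3 lower in all 3 pairs, against 12.1% and 13.1% of all tested genes. CYP96A15 was the only one of the 32 that edgeR called higher, against 0.029% called higher over all genes. KCS2, a fatty acid elongase, had 7, 7.4 and 5.94 CPM in atrzf1, against 2.56, 3.40 and 5.27 in WT (edgeR adjusted p = 1). CER1 had 21.8, 28.3 and 11.3 CPM in atrzf1, against 12.2, 16.3 and 5.50 in WT. The median over the list was 0.12, and its 3 pair medians were 0.14, 0.20 and 0.09.

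**Figure D5:**
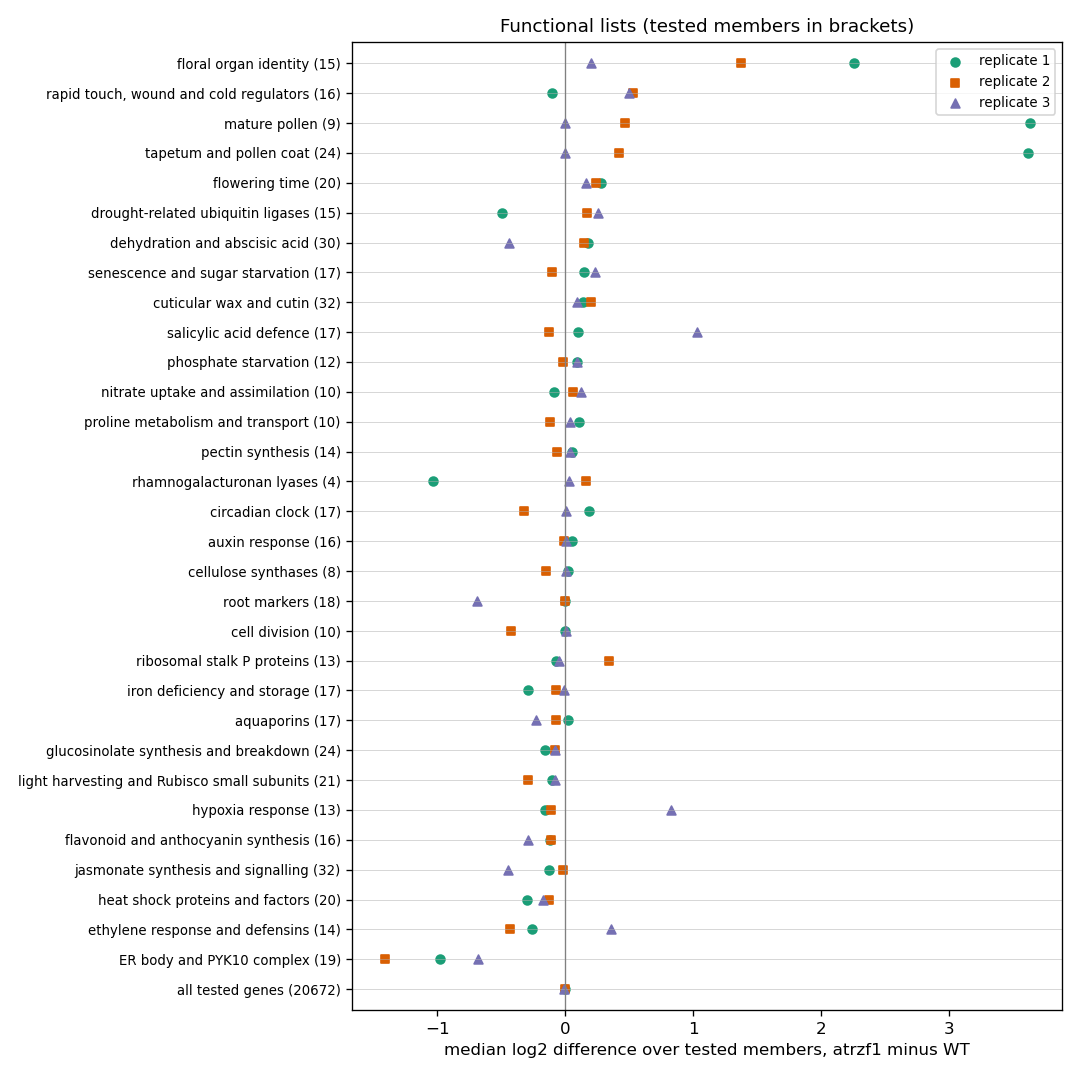
Median log2 difference (atrzf1 minus WT) over the tested members of each functional list, by replicate, with the number of tested members in brackets and all tested genes at the bottom. Floral and pollen lists spread to the right in replicates 1 and 2, the ER body list lies to the left in all 3, and most other lists lie near 0 or differ in sign between replicates.

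In the remaining lists the pairs often went different ways. Salicylic acid defence genes had pair medians of 0.10, -0.13 and 1.03, and ethylene response and defensin genes -0.26, -0.43 and 0.36. WRKY70, a regulator of salicylic acid defence, had 215, 103 and 24.3 CPM in atrzf1, against 149, 99 and 10 in WT. Hypoxia genes had pair medians of -0.16, -0.11 and 0.83, and touch, wound and cold regulators -0.10, 0.53 and 0.50. The clock, auxin response, phosphate starvation, nitrate, iron, senescence, cell division, cellulose synthase and aquaporin lists had median log2 fold changes from -0.20 to 0.05. Of the 184 genes in these 13 lists, 0 passed edgeR's adjusted test, and 14 had an unadjusted p under 0.05, against 3.73% of all tested genes. DESeq2 with the block called 0 of them, and also 0 in the jasmonate, proline, dehydration, ubiquitin ligase, pectin, light-harvesting, heat shock, glucosinolate, flavonoid and wax lists.

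The annotation was also read without chosen lists, by 192 product names shared by at least 10 tested genes. The highest median log2 fold change was that of the K-box MADS-box factors, 1.04 over 16 genes, with pair medians of 1.64, 0.29 and 0.12. The Nodulin MtN3 (SWEET sugar transporter) family came next with 0.34 over 12 genes, of which 3 lay higher and 3 lower in all 3 pairs. The Pollen Ole e 1 allergen and extensin family followed with 0.29 over 22 genes, of which 6 lay higher and 0 lower in all 3 pairs. Over all tested genes these shares were 12.1% and 13.1%, and the pair medians of this family were 0.01, 0.33 and 0.01. The lowest was that of the O-methyltransferase family, -0.54 over 10 genes, followed by the proline-rich extensin-like family with -0.45 over 10 genes, all below 0. That extensin-like family differed mainly in replicate 3, where its median paired difference was -0.35, against 0 in the other pairs. Peroxidases, wall and defence enzymes, had 38 of 50 genes below 0 and a median of -0.23. In all 3 pairs 11 of the 50 lay lower and 1 higher, against 13.1% and 12.1% of all tested genes. In these 6 families 0 genes passed edgeR's adjusted test and 25 of 120 had an unadjusted p under 0.05, against 3.73% of all tested genes. DESeq2 with the block called 5 of the MADS-box, 2 of the MtN3 and 4 of the Pollen Ole e 1 genes, against 47 of all 20672. The MADS-box calls were AP1, AP3, PI and SEP3, higher in atrzf1, and FLC, lower. Among the Pollen Ole e 1 calls, AT1G29140 and AT5G45880 lay higher in only 1 pair each. Apart from the peroxidases, the families were picked for the size of their medians of these same values. Families with medians from -0.29 to -0.24 lay below the peroxidases and were not picked, so all these counts are a description.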

How the data were processed

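Counts per gene were deposited for 9 Arabidopsis libraries, and per the file headers the third library of each genotype carries no number, which was taken from its title. The deposited counts are raw, as whole numbers with different totals show. Per the labels' protocols, RNA was extracted with TRIzol and made into QuantSeq 3′ libraries. Bowtie2, bedtools and the TAIR10 build are named, per the submitters' processing notes. Neither versions nor the strand setting, annotation or read filter is stated in the sources used here. Without the strand setting, reads of SPL3, SPL9, SPL15, KCS2, LHCB1.3, MEB1, TIP5;1, AT4G12545 and AT4G33467 cannot be told apart from those of genes that overlap them on the other strand. Of 33323 identifiers, 32835 matched the RefSeq annotation of TAIR10.1, the source of names, coordinates and upstream sequence. The libraries carry no stated molecular identifiers, so PCR copies count as reads, and floors of 3 counts (0.101 to 0.131 CPM in the 6 libraries compared) cover counting error only.

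The analysis used edgeR 4.0.16 in R 4.3.3: filterByExpr (minimum count 10, minimum total 15) kept 20672 genes, TMM factors of the 6 libraries ran from 0.819 to 1.17, and glmQLFit and glmQLFTest were fitted to all 9 libraries with replicate number as a block plus genotype. Benjamini-Hochberg adjustment ran over all tested genes at a threshold of 0.05. Paired differences used log2 CPM with a prior count of 2, and a pair with 0 counts in both libraries was set to 0. The replicate numbers come from the sample titles. They were taken to pair the libraries because deviations from the genotype means of same-numbered libraries correlated across genes with r of 0.585, 0.73 and 0.828 in the 3 pairs. The smallest chi-square per degree of freedom between libraries of a genotype was 190, so none was treated as a duplicate.

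Named genes were AtRZF1, every called gene, and the 12 genes in each direction with the largest smallest paired difference of one sign among genes averaging at least 5 CPM in the higher genotype. The next gene below this limit had 0.64 on the higher side, where the last within it had 0.67, and both had 0.84 on the lower side. One gene on the lower side is not reported here. From each list, up to 3 members per direction were taken in the same way, and in the floral lists members from 1 CPM with an unadjusted p under 0.05 or 3 pairs of one sign. Members and lists were chosen with earlier results of these data known, and the ER body list, NSP1, MBP1 and AT5G37940 after their values were seen here. Alternatives were no block, 6 libraries only, DESeq2 1.42.0, limma 3.58.1 (voom), other scalings and filters, and leaving out libraries.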

Additional observations from a re-analysis of the deposited data

How the results depend on the processing

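The count of called genes depended on the setting. It was 7 with the replicate block and 0 with no replicate block, where 115 genes had an unadjusted p under 0.05. With the block it was 47 in DESeq2 (27 higher, 20 lower), with 3 of the 7 among them. Some DESeq2 calls, such as AT3G01270, AT3G07820 and sks12, lay higher in only 1 pair, with log2 fold changes of 19.51, 19.15 and 18.55. The count with the block was 1 in limma-voom, 1 with library totals as the scaling and 35 with no filter on low counts (21 higher, 14 lower). It was 2 with a filter at a mean of 5 CPM, 10 with the 6 libraries alone (4 higher, 6 lower) and 7 with RLE scaling. It ran from 1 to 16 when libraries or replicate numbers were left out in turn. It was 3 without atrzf1 library 1 or replicate 1, 1 without WT library 1, 12 without WT library 2, 16 without WT library 3 or replicate 3, and 3 without the pca31 library numbered 2, an alternative added after seeing the data. The cause was not tested.

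AtRZF1 was called in 17 of 18 alternatives, the exception being no replicate block, CYP96A15 in 11 of 18 and RPP2C in 7 of 18. GRP16 was called in 11 of the 17 alternatives that tested it, GRP14 and EXL4 in 6 of 16 each and XTH3 in 5 of 16. Of ER body and floral genes that DESeq2 called, PBP1 and JAL34 passed in 4 of 18 alternatives. PYK10, SEP3 and PI passed in 3 of 18, JAL22 and GLL23 in 2 of 18, and AP1 and AP3 in 1 of 17 each. The median of the ER body list lay between -1.23 and -0.71 over 18 alternatives, and that of the floral list between 0.86 and 1.92. The tapetum list ran from 0.40 to 4.91 and mature pollen from -0.06 to 6.24. Log2 fold changes turned sign with libraries left out for MVP1 (-0.32 to 0.12, 0.06 without replicate 2), RALFL8 (-0.09 at its lowest), VGDH1 (-1.75 to 7.37), GPAT4 (-0.29 to 0.02), PDC2 (-0.37 to 0.01) and CBP60G (-0.04 to 0.65). Genes near 0 counts are limited by depth, since 3 counts were 0.101 to 0.131 CPM.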

Other observations

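Paired differences depended on the chromosome in replicate 2. Among genes whose higher genotype averaged at least 5 CPM, the median difference of atrzf1 minus WT was 0.088 over 3104 genes of chromosome 5 and -0.028 over 10326 genes of chromosomes 1 to 4. On chromosome 5, 59.4% of these genes lay above 0, against 46.9% on the other chromosomes. In replicate 1 the medians were -0.009 on chromosome 5 and -0.016 elsewhere, and in replicate 3 they were -0.010 and -0.016. The same WT library set against pca31 library 2 gave medians of 0.058 on chromosome 5 and -0.057 elsewhere for pca31 minus WT, while pca31 minus atrzf1 in replicate 2 gave -0.008 and -0.025. The first 2 of these comparisons share the WT library numbered 2. The cause was not tested.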
